A study of Gallus gallus with 12 samples.

Results

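The heat shock transcription factors HSF1, HSF2, HSF3 and HSF4 were described across libraries of chicken embryo brain, as the 4 rows of the count table that carry these gene names, out of 30742 rows of which 14248 carry a gene symbol. RNA-seq libraries came from White leghorn embryos collected on embryonic day 18, 3 in each of 4 groups. The heat-exposed groups (ETM, embryonic thermal manipulation) held hypothalamus or whole brain of embryos kept at 39.5 °C from day 13 to day 18. The control groups (CT) held the same 2 labelled tissues of embryos kept at 37.8 °C throughout. Relative humidity was given as 65% in one of the submitters' texts and as 60% in another. All embryos were of 1 strain and all libraries carried 1 batch label. The submitters describe the replicates as biological. How many embryos went into a library is not stated, so each p-value reflects only how far these libraries varied, which may be partly technical. The ETM embryos were collected at the end of the warm period, with no later time point in these groups.

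Heat shock factors are transcription factors that form trimers and bind heat shock elements, repeated short motifs in the promoters of chaperone genes. In resting cells HSF1 is held inactive by chaperones such as HSP90 and HSP70, and it is released when unfolded proteins take up those chaperones, so its activity is set largely without a change in its own mRNA. Mammals rely on HSF1 for the heat response, whereas in birds HSF3 has been described as a main heat-responsive factor. HSF2 is known in mouse for a part in the developing cortex, where it acts on neuron migration genes, and HSF4 is known in mammals for its part in the lens.

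The 4 genes lie on separate chromosomes of build GRCg7b and are annotated as protein coding. HSF1 (ENSGALG00010009352) spans chromosome 2, 148261105 to 148358452, on the minus strand. Its deposited gene length is 1385 bases within a span of 97348 bases, and RefSeq carries it as LOC420362. HSF2 (ENSGALG00010012875) spans chromosome 3, 60968000 to 60990044, minus strand, with a gene length of 3109 bases. HSF3 (ENSGALG00010016823) spans chromosome 4, 238096 to 253564, minus strand, with a gene length of 4136 bases. HSF4 (ENSGALG00010024703) spans chromosome 11, 2481438 to 2497331, plus strand, with a gene length of 2733 bases. The deposited values are sums over the whole gene, so splice forms were not separated.

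Total counts ran from 13309467 to 18317019 per library. Genes of the W chromosome held 0.1196% of counts in CT hypothalamus library 3, 0.1129% in ETM hypothalamus library 2 and 0.1472% in ETM whole brain library 1. In each other library they held 0.01048% to 0.01742%, so no CT whole brain library had a high share. Sex was therefore not shown to be balanced between the groups, and a covariate for this share was among the alternatives. The label hypothalamus was checked against 15 measured markers of that region. Levels are CPM, counts scaled to library size with the TMM factors of edgeR. The summed level was 43.33 to 69.4 CPM in ETM and 54.69 to 120.2 CPM in CT libraries labelled hypothalamus, against 154.8 to 174.4 CPM in ETM and 205.5 to 222.9 CPM in CT whole brain. NKX2-1, a defining factor of the hypothalamus, averaged 0.415 CPM in ETM and 0.0459 CPM in CT libraries labelled hypothalamus, against 5.17 CPM in ETM and 5.62 CPM in CT whole brain. In ETM libraries labelled hypothalamus it ranged from 0 to 1.245 CPM. Other markers of the list went the other way. OTP averaged 8.44 CPM in ETM and 23.29 CPM in CT libraries labelled hypothalamus, against 2.65 CPM in ETM and 5.71 CPM in CT whole brain. Its CT libraries labelled hypothalamus ranged from 6.204 to 43.08 CPM, so libraries of 1 group differed widely in these markers. In ETM and in CT alike, 6 of the 15 (OTP, SIM1, HMX3, HMX2, RAX and NR5A1) had a higher mean in the libraries labelled hypothalamus and 9 a lower one. Of the 6, HMX2, RAX and NR5A1 overlapped between the tissues in both treatments and HMX3 in ETM. NR5A1 averaged 1.05 ± 0.491 CPM in CT libraries labelled hypothalamus and 0.969 ± 0.168 CPM in CT whole brain. Of the 9, TRH overlapped in both treatments. Midbrain and hindbrain markers summed to 138 to 545.4 CPM in ETM and 652.5 to 872.6 CPM in CT libraries labelled hypothalamus, against 63.9 to 71.38 CPM in ETM and 70.18 to 92.39 CPM in CT whole brain. In ETM hypothalamus library 1 the deposited FPKM values (reads scaled to gene length and library size) did not follow the deposited counts, and the reads recovered from its FPKM gave 544 for HSF1 where the count column held 531, 239 against 326 for HSF2, 420 against 481 for HSF3 and 19 against 23 for HSF4. Where these recovered reads changed a call named below, their value is given beside it or in the closing section.

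Per kilobase of gene length, HSF1, HSF2 and HSF3 stood within a few-fold of one another in every group, and HSF4 stood far below them. In ETM hypothalamus libraries HSF1 averaged 23.5 ± 8.12, HSF3 11.98 ± 2.29, HSF2 10.39 ± 1.68 and HSF4 0.642 ± 0.0633 CPM per kilobase (SD, n = 3). The ranges of HSF3 and HSF2 overlapped in that group. In CT hypothalamus libraries the order was HSF1 at 19.9 ± 3.81, HSF2 at 11.78 ± 1.05, HSF3 at 9.43 ± 0.338 and HSF4 at 0.301 ± 0.0634 CPM per kilobase, and no neighbours in that order overlapped.

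In whole brain HSF2 came first in both groups. In ETM whole brain HSF2 averaged 20.44 ± 1.18, HSF1 10.08 ± 0.767, HSF3 9.18 ± 0.183 and HSF4 0.285 ± 0.0736 CPM per kilobase, with HSF1 and HSF3 overlapping. In CT whole brain HSF2 averaged 16.44 ± 1.99, HSF1 14.13 ± 3.55, HSF3 7.73 ± 0.616 and HSF4 0.2445 ± 0.0645 CPM per kilobase, with HSF2 and HSF1 overlapping. The order of HSF1 rests on its short deposited gene length. Whether that model covers the whole transcript was not tested, and if it does not, the HSF1 levels per kilobase are too high. In CPM without division by length HSF3 came first in both hypothalamus groups and HSF1 came after HSF2 and HSF3 in both whole brain groups. The deposited FPKM gave the order of CPM per kilobase in all 4 groups.

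**Figure D1:**
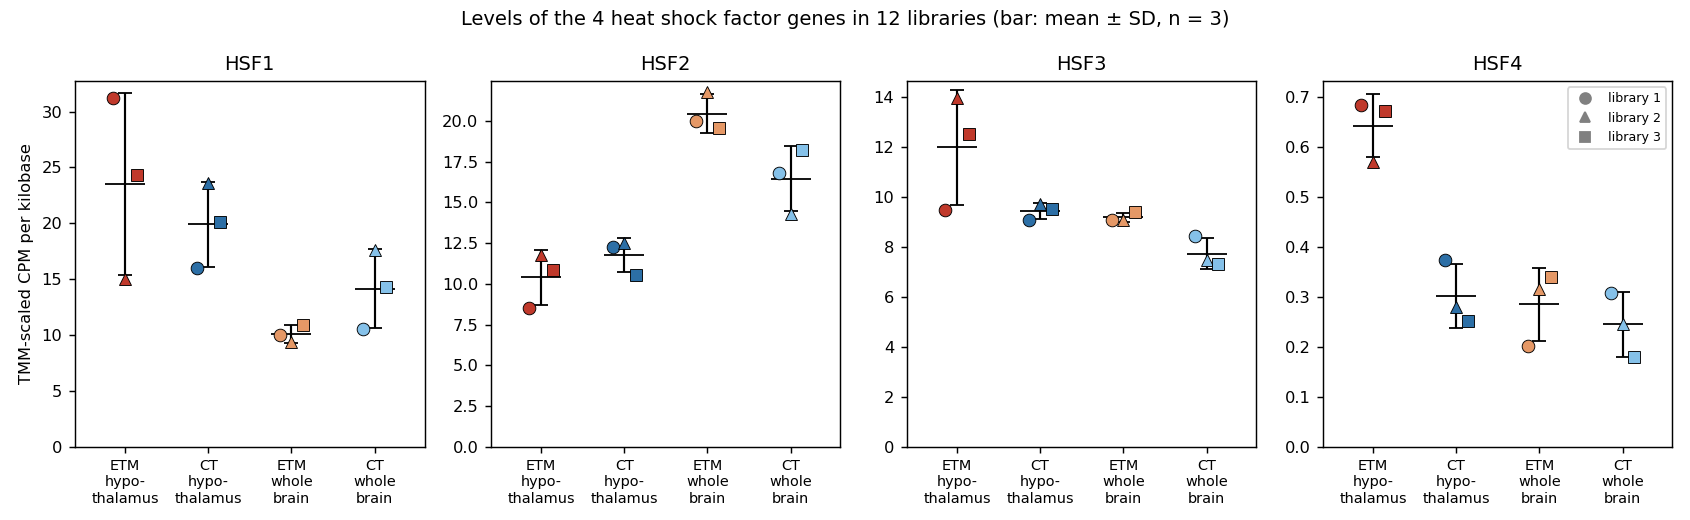
Level of each heat shock factor gene in TMM-scaled CPM per kilobase of deposited gene length (vertical axis, from 0, on its own scale in each panel) in ETM and CT libraries of each labelled tissue. Points are libraries and bars are mean ± SD of 3; HSF2 in ETM whole brain lies at 20.44 ± 1.18, above the other groups, and HSF4 in ETM hypothalamus lies at 0.642 ± 0.0633, above the other groups.

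HSF1 was lower in ETM than in CT whole brain and did not pass the test in the libraries labelled hypothalamus. It measured 13.85, 12.96 and 15.08 CPM in ETM whole brain, against 14.52, 24.35 and 19.82 CPM in CT whole brain. ETM libraries were low throughout and CT libraries spread widely, and the groups overlapped because CT library 1 lay below ETM library 3. The log2 fold change was −0.53 ± 0.17 (SE; edgeR, Benjamini-Hochberg adjusted p = 0.0301), and calls below mean an adjusted p under 0.05. In that comparison 44.3% of the 15305 genes tested were called, so 1 called member of 4 is not above the share of all genes.

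The HSF1 difference in whole brain depended on single libraries. Without CT library 2, the highest, it was −0.35 (edgeR adjusted p = 0.122), and without CT library 1, the lowest, it was −0.70 (edgeR adjusted p = 0.00354). It also missed the threshold without CT library 3 (adjusted p = 0.0721), ETM library 1 (0.0624) or ETM library 2 (0.096), all from edgeR.

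In the libraries labelled hypothalamus HSF1 measured 43.2, 20.79 and 33.64 CPM in ETM, against 22.12, 32.65 and 27.9 CPM in CT. The ETM group held both the highest and the lowest of the 6 libraries. The log2 fold change was 0.23 ± 0.25 (SE; edgeR adjusted p = 0.803). It was −0.021 without ETM library 1, so its sign rests on that library. With the recovered reads for that library it was 0.33 (edgeR adjusted p = 0.758).

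Summed markers of oligodendrocytes, the myelin-forming cells, are given beside HSF1 because they varied in the same libraries; this pair was chosen after the values were seen. The 5 measured of 8 listed markers summed to 28640, 17640 and 20940 CPM in ETM libraries 1 to 3 labelled hypothalamus, against 10620, 21430 and 16030 CPM in the CT ones. In whole brain they summed to 3866, 4644 and 3479 CPM in ETM, against 3475, 5548 and 4317 CPM in CT. Within both hypothalamus groups and within CT whole brain the libraries held the same order in HSF1 as in the marker sum. Within ETM whole brain they did not, since library 2 had the highest marker sum and the lowest HSF1. Of the 13 marker lists, that of the pallium, the dorsal forebrain, held the order of HSF1 in the same 3 groups, at far lower sums in hypothalamus of 24.27 to 37.59 CPM in ETM and 20.01 to 29.66 CPM in CT. The lists of astrocytes and radial glia and of lens and eye each held it in 2 groups. The endothelium list held it in 0, and each other list in 1. With 3 libraries a group an order is easily shared, so these matches do not single out oligodendrocytes. The part of these cells in the HSF1 values was not tested, and in bulk tissue fewer cells of a type and less RNA per cell cannot be told apart.

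**Figure D2:**
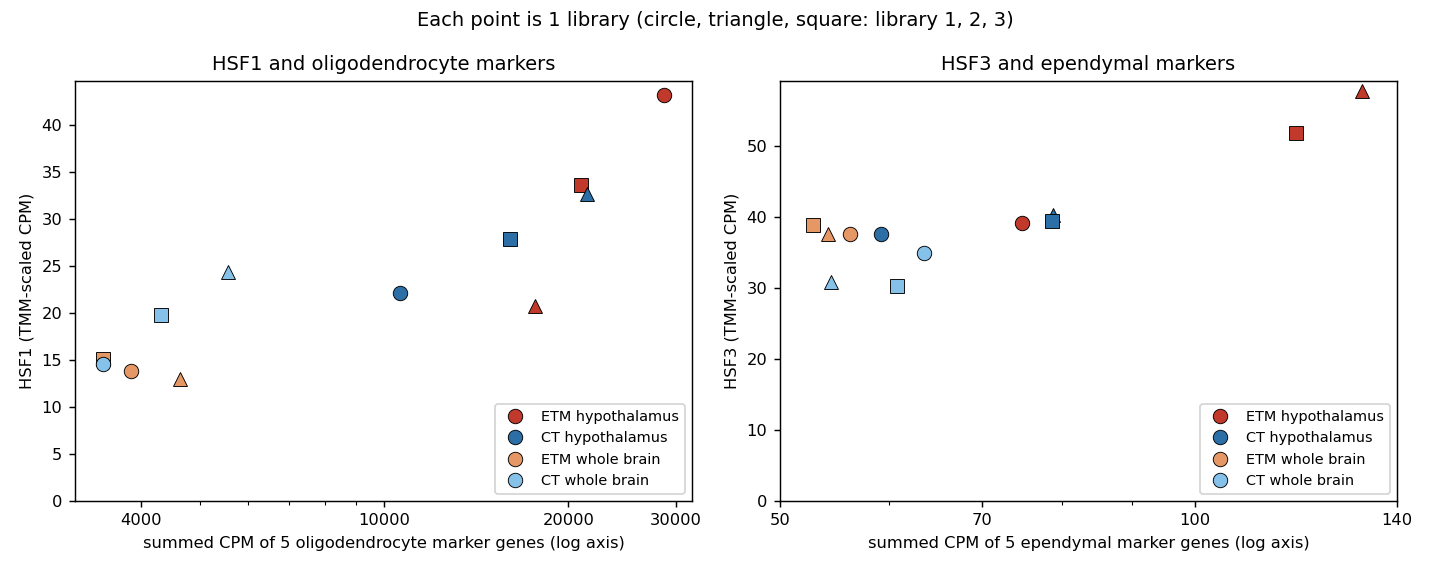
HSF1 (left) and HSF3 (right) in TMM-scaled CPM against the summed CPM of 5 oligodendrocyte and 5 ependymal marker genes on a log axis, each point 1 of 12 libraries and each colour 1 group. HSF1 reaches 43.2 CPM in the library with the highest oligodendrocyte sum, and HSF3 reaches 57.7 CPM in the library with the highest ependymal sum.

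Marker sums of other cell types and regions were also compared between the whole brain groups, with no overlap for 7 of the 13 lists. Of all genes 56.5% showed no overlap in that comparison, so the count of lists is not above the share of all genes. Neuron markers summed to 4830 to 5572 CPM in ETM and 3687 to 4043 CPM in CT, cerebellum markers to 379.1 to 430.8 CPM in ETM and 194.4 to 281.2 CPM in CT, and pallium markers to 502.4 to 509.6 CPM in ETM and 381.8 to 476.4 CPM in CT. Choroid plexus markers were likewise higher in each ETM library. Microglia markers summed to 34.52 to 38.5 CPM in ETM and 55.23 to 56.86 CPM in CT, and the sums of red blood cell and hypothalamus markers were also lower in each ETM library. A sum need not hold for each of its genes. The pallium marker TBR1 averaged 129.9 ± 3.65 CPM in ETM and 148.4 ± 29.2 CPM in CT whole brain, with overlap, opposite to the pallium sum. Within the hypothalamus sum AVP averaged 29.5 CPM in ETM and 63.49 CPM in CT whole brain, whereas NPY averaged 50.28 and 51.41 CPM. In the libraries labelled hypothalamus 1 of the 13 lists was higher and 2 were lower in each ETM library, where 16.1% of all genes showed no overlap. Choroid plexus markers summed to 37.57 to 41.17 CPM in ETM and 23.07 to 32.11 CPM in CT. Endothelium markers summed to 310.3 to 360 CPM in ETM and 373.6 to 441.4 CPM in CT. The midbrain and hindbrain sums, given above, were also lower in each ETM library. The part of these cells and regions in either tissue's values of the factors and of the gene lists below was not tested.

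HSF2 did not pass the test of heat exposure in either tissue, although the whole brain groups stood apart. It measured 62.17, 67.73 and 60.78 CPM in ETM whole brain, against 52.26, 44.43 and 56.66 CPM in CT whole brain. Every ETM library lay above every CT library. The log2 fold change was 0.27 ± 0.10 (SE; edgeR adjusted p = 0.0502), just outside the threshold. Without CT library 3 it was 0.34 (edgeR adjusted p = 0.0386). Groups without overlap were found for 56.5% of all genes in this comparison, and for 2 of the 4 members, HSF2 and HSF3.

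In the libraries labelled hypothalamus HSF2 measured 26.52, 36.66 and 33.77 CPM in ETM, against 38.21, 38.8 and 32.86 CPM in CT. ETM library 1 was the lowest of the 6, and the other ETM libraries lay within the CT range. The log2 fold change was −0.18 ± 0.15 (SE; edgeR adjusted p = 0.731), and with the recovered reads for ETM library 1 it was −0.25 (edgeR adjusted p = 0.742). Without that library it was −0.057 (edgeR adjusted p = 0.86).

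HSF3, the factor tied to heat in birds, was above CT in the mean of both tissues without passing a test. It measured 37.52, 37.51 and 38.82 CPM in ETM whole brain, against 34.88, 30.82 and 30.19 CPM in CT whole brain. The groups did not overlap, and the log2 fold change was 0.21 ± 0.09 (SE; edgeR adjusted p = 0.102). Without CT library 1 it was 0.27 (edgeR adjusted p = 0.0475), and with offsets for gene length and chromosome class it was 0.062 (edgeR adjusted p = 0.617).

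In the libraries labelled hypothalamus HSF3 measured 39.13, 57.7 and 51.82 CPM in ETM, against 37.48, 40.21 and 39.33 CPM in CT. ETM libraries 2 and 3 stood above all others, and ETM library 1 lay among the CT libraries. The log2 fold change was 0.34 ± 0.15 (SE; edgeR adjusted p = 0.487). The 3 CT libraries differed by 3.58% of their mean (coefficient of variation, SD over mean), about what counting alone would give at 4.05%, whereas the ETM libraries differed by 19.2%.

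Ependymal markers, genes of the ciliated cells that line the ventricles, are given beside HSF3 for the same reason as above. All 5 listed markers were measured, and they summed to 74.93, 132.1 and 118.3 CPM in ETM libraries 1 to 3 labelled hypothalamus, against 59.16, 78.8 and 78.74 CPM in the CT ones. The libraries of both groups held the same order in HSF3 as in this sum, and those of the whole brain groups did not. In whole brain the sum was 52.78 to 56.19 CPM in ETM, against 54.44 to 63.61 CPM in CT, while HSF3 was higher in each ETM library. Of the 13 marker lists, that of the endothelium also held the order of HSF3 in 2 of 4 groups, ETM hypothalamus and CT whole brain. Those of astrocytes and radial glia, oligodendrocytes, microglia, choroid plexus, pallium, cerebellum, and lens and eye held it in CT hypothalamus alone. In that group the ependymal sums of libraries 2 and 3 were nearly equal, at 78.8 and 78.74 CPM. HSF3 varied there about as much as counting alone would give, so a shared order in CT hypothalamus carries little information. The part of ependymal or other cells in the HSF3 values was not tested.

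HSF4 was counted at 7 to 29 reads per library, so its values carry large counting errors. It measured 1.87, 1.56 and 1.84 CPM in ETM libraries labelled hypothalamus, against 1.02, 0.762 and 0.689 CPM in CT. Each ETM library lay above each CT library, on 23, 25 and 29 reads against 14, 14 and 10. The log2 fold change was 1.08 ± 0.36 (SE; edgeR adjusted p = 0.343, unadjusted p = 0.0124). It was 1.05 with the recovered reads for ETM library 1 (edgeR adjusted p = 0.452). On log2(FPKM + 1), a scale that understates the change of low genes, it was 0.31 (limma adjusted p = 0.339).

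None of the 4 members passed the edgeR test in this comparison, in which 0.0454% of 15405 genes were called. HSF4 was the member with an unadjusted edgeR p below 0.05, where 1594 of all genes tested had one. DESeq2 called 0 of the other 3 and gave HSF4 no adjusted p. Groups without overlap were found for 16.1% of all genes and for 1 of 4 members. In whole brain HSF4 measured 0.549, 0.86 and 0.926 CPM in ETM, against 0.843, 0.671 and 0.4903 CPM in CT. These groups overlapped, and the log2 fold change was 0.16 ± 0.42 (SE; edgeR adjusted p = 0.771).

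Over both tissues, with tissue as a covariate, no member passed the edgeR test, where 1.27% of 16201 genes were called. HSF3 had the lowest p of the members, with a log2 fold change of 0.30 ± 0.09 (SE; unadjusted p = 0.00731, edgeR adjusted p = 0.107). HSF4 followed with 0.68 ± 0.27 (unadjusted p = 0.0243, edgeR adjusted p = 0.161). HSF2 measured 0.071 ± 0.12 (adjusted p = 0.741) and HSF1 −0.12 ± 0.20 (adjusted p = 0.745). DESeq2 called 0 of the 3 members to which it gave an adjusted p, with HSF3 at 0.0528. Without ETM hypothalamus library 1 the HSF3 value was 0.34 (edgeR adjusted p = 0.015).

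The heat effects of the tissues were compared by an interaction term, the ETM minus CT difference in hypothalamus minus that in whole brain. In that test 24.2% of 16201 genes were called and 0 of 4 members. HSF2 measured −0.49 ± 0.18 (SE; unadjusted p = 0.0185, edgeR adjusted p = 0.0669), HSF1 0.72 ± 0.34 (adjusted p = 0.142), HSF4 0.88 ± 0.50 (adjusted p = 0.213) and HSF3 0.099 ± 0.18 (adjusted p = 0.717). DESeq2 called 0 of the 3 members to which it gave an adjusted p, with HSF2 at 0.0546. Without ETM hypothalamus library 2 both HSF2 (−0.60, edgeR adjusted p = 0.0389) and HSF1 (0.96, edgeR adjusted p = 0.0308) passed. HSF1 passed in whole brain and not in hypothalamus, but the difference between its heat effects did not pass in the fit of all libraries.

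**Figure D3:**
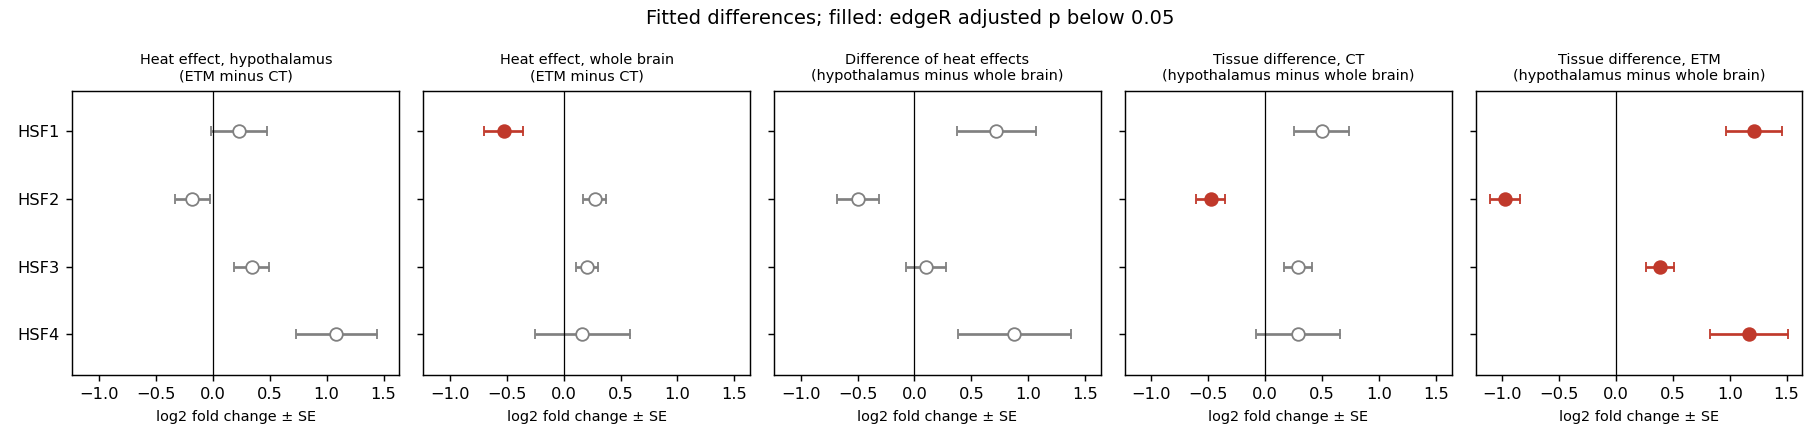
Fitted log2 fold change ± SE (horizontal axis) of HSF1, HSF2, HSF3 and HSF4 in 5 comparisons, filled where the edgeR adjusted p is below 0.05. HSF1 passes in whole brain at −0.53 ± 0.17, HSF2 in the tissue comparison of CT libraries at −0.48 ± 0.13, and all 4 genes pass in the tissue comparison of ETM libraries.

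The labelled tissues were also compared within each treatment, in 1 fit of all 12 libraries. These comparisons share libraries with the heat comparisons above and are not independent of them. In ETM embryos all 4 members differed between the tissues, with no overlap. HSF1 averaged 32.54 ± 11.25 CPM in ETM hypothalamus and 13.96 ± 1.06 CPM in ETM whole brain (SD, n = 3 each), a log2 fold change of 1.22 ± 0.25 (SE; edgeR adjusted p = 0.000852). HSF2 averaged 32.32 ± 5.22 CPM in ETM hypothalamus and 63.56 ± 3.68 CPM in ETM whole brain, a log2 fold change of −0.97 ± 0.13 (edgeR adjusted p = 3.2e-05). HSF2 was thus the member lower in the libraries labelled hypothalamus.

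HSF3 averaged 49.55 ± 9.49 CPM in ETM hypothalamus and 37.95 ± 0.756 CPM in ETM whole brain, a log2 fold change of 0.39 ± 0.12 (SE; edgeR adjusted p = 0.0168). HSF4 averaged 1.755 ± 0.173 CPM in ETM hypothalamus and 0.778 ± 0.201 CPM in ETM whole brain, a log2 fold change of 1.17 ± 0.34 (edgeR adjusted p = 0.00936). In this comparison 58.9% of 16201 genes were called and 63.5% showed no overlap, so a call was common among all genes. With the recovered reads for ETM hypothalamus library 1 the values were 1.32 for HSF1, −1.04 for HSF2, 0.38 for HSF3 and 1.14 for HSF4, and all passed. Without that library HSF1 was 0.97 (edgeR adjusted p = 0.00387).

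Of these calls, 2 were lost when 1 library was left out. HSF3 missed the threshold without ETM hypothalamus library 2 (0.26, edgeR adjusted p = 0.0963), ETM hypothalamus library 3 (0.0518), ETM whole brain library 1 (0.0527) or ETM whole brain library 2 (0.0512). HSF4 missed it without ETM whole brain library 1 (0.96, edgeR adjusted p = 0.0516), and on log2(FPKM + 1) its difference was 0.33 (limma adjusted p = 0.00114).

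In CT embryos HSF2 was the member that passed. It averaged 36.62 ± 3.27 CPM in CT hypothalamus and 51.12 ± 6.2 CPM in CT whole brain (SD, n = 3 each), with no overlap and a log2 fold change of −0.48 ± 0.13 (SE; edgeR adjusted p = 0.0118). In this comparison 34.3% of 16201 genes were called and 49.3% showed no overlap, against 1 and 2 of the 4 members. HSF2 missed the threshold without CT hypothalamus library 3 (−0.42, edgeR adjusted p = 0.0519), without CT whole brain library 3 (−0.41, edgeR adjusted p = 0.0579) and with the recovered reads in the shared fit (−0.48, edgeR adjusted p = 0.0532).

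The other members did not pass between the CT groups. HSF3 averaged 39.01 ± 1.4 CPM in CT hypothalamus and 31.96 ± 2.55 CPM in CT whole brain, without overlap (log2 fold change 0.29 ± 0.13, edgeR adjusted p = 0.0944). HSF1 averaged 27.56 ± 5.27 CPM in CT hypothalamus and 19.56 ± 4.92 CPM in CT whole brain, with overlap (0.50 ± 0.24, edgeR adjusted p = 0.132). HSF4 averaged 0.823 ± 0.173 CPM in CT hypothalamus and 0.668 ± 0.176 CPM in CT whole brain, with overlap (0.29 ± 0.37, edgeR adjusted p = 0.573). Taking all 4 groups in order of their mean CPM, HSF1 ran from ETM hypothalamus through CT hypothalamus and CT whole brain to ETM whole brain, and each pair of neighbours overlapped. HSF2 ran from ETM whole brain through CT whole brain and CT hypothalamus to ETM hypothalamus, and the hypothalamus groups were the neighbours that overlapped. HSF3 ran from ETM hypothalamus through CT hypothalamus and ETM whole brain to CT whole brain, and the whole brain groups were the neighbours that did not overlap. HSF4 ran from ETM hypothalamus through CT hypothalamus and ETM whole brain to CT whole brain, and its first place alone was clear of its neighbour.

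The makeup of the family was expressed as the share of each member in the summed CPM per kilobase of all 4 within a library, which does not depend on library scaling but does depend on the deposited gene lengths. With 3 libraries against 3 the exact two-sided permutation test cannot give a p below 0.1. HSF1 made up 25.46%, 23.1% and 27.11% in ETM whole brain, against 29.1%, 44.43% and 35.77% in CT whole brain, so every ETM share was below every CT share (exact permutation p = 0.1, n = 3 each). HSF2 made up 51.12 ± 2.54% in ETM and 42.77 ± 5.79% in CT whole brain (SD, n = 3 each), also with no overlap (exact permutation p = 0.1). The shares of a library add up to the whole, so a lower HSF1 share means a higher share of the others together. The HSF1 and HSF2 differences in share are therefore not independent. In CPM without gene length the whole brain differences were −6.96 in place of −11.2 percentage points for HSF1 (exact permutation p = 0.1) and 5.26 in place of 8.35 for HSF2 (exact permutation p = 0.2, n = 3 each). The shares of HSF3 were 22.95 ± 0.516% in ETM and 20.16 ± 2.83% in CT whole brain (exact permutation p = 0.4).

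In the libraries labelled hypothalamus the HSF1 share spread from 36.33% to 62.55% in ETM, against 42.37% to 51.19% in CT (exact permutation p = 0.9, n = 3 each). The HSF4 share was 1.38 ± 0.00894% in ETM and 0.739 ± 0.217% in CT, without overlap (exact permutation p = 0.1, n = 3 each). On 23 to 29 reads per ETM library counting alone would give HSF4 a coefficient of variation of 19.7%. The small SD of the ETM share is therefore no measure of its precision. Between the labelled tissues the HSF2 share was 22.7 ± 5.72% in ETM hypothalamus and 51.12 ± 2.54% in ETM whole brain, and 28.6 ± 3.5% in CT hypothalamus and 42.77 ± 5.79% in CT whole brain. Neither pair overlapped (exact permutation p = 0.1 in each, n = 3).

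**Figure D4:**
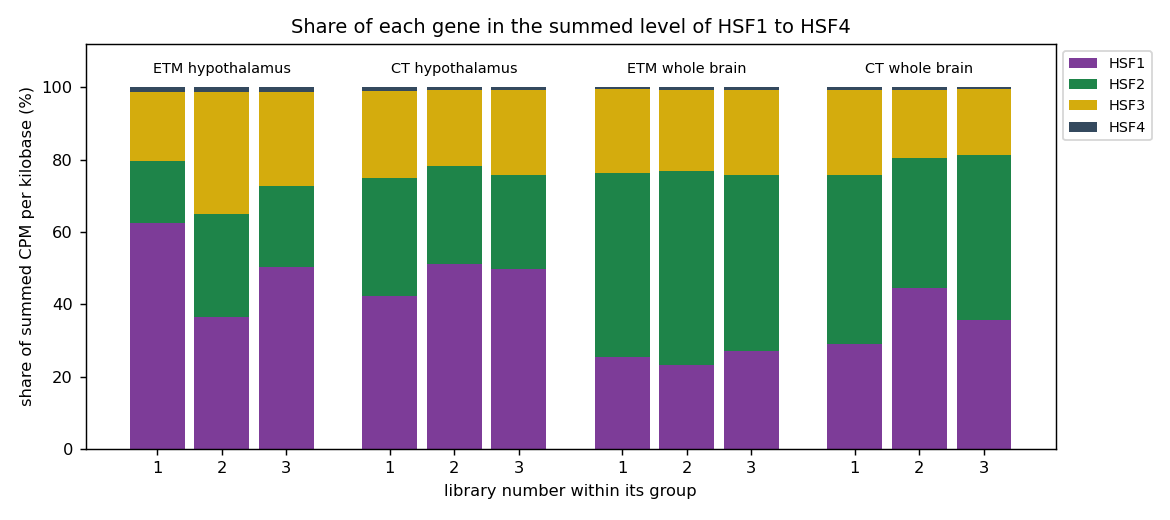
Share of HSF1, HSF2, HSF3 and HSF4 in their summed CPM per kilobase (vertical axis, percent), 1 bar per library, with ETM left of CT for each labelled tissue. HSF2 holds 51.12 ± 2.54% in ETM whole brain and 42.77 ± 5.79% in CT whole brain, and HSF1 ranges from 36.33% to 62.55% among ETM hypothalamus libraries.

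Genes close to a member could share reads with it, since the strand setting of the counting is not given in the sources used here. HSF1 and BOP1, a ribosome assembly gene, face away from each other with 405 bases between their starts. BOP1 averaged 54.01 ± 5.84 CPM in ETM and 87.52 ± 7.17 CPM in CT whole brain, a log2 fold change of −0.74 ± 0.10 (SE; edgeR adjusted p = 0.000324), the same direction as HSF1. HEPH, a ferroxidase gene, starts 1135 bases from HSF3 on the other strand and measured −0.68 ± 0.13 in whole brain (SE; edgeR adjusted p = 0.00165), opposite to HSF3. SERINC1, a membrane protein gene that ends 501 bases from HSF2, averaged 1034 ± 73.3 CPM in ETM and 851.6 ± 27.8 CPM in CT whole brain (0.24 ± 0.08, edgeR adjusted p = 0.0251). The choice of these 3 followed a look at the values, and no named gene overlapped a member. In whole brain 44.3% of all genes were called, 3230 higher and 3557 lower, so a called neighbour was common in either direction. Whether reads were shared was not tested. The other neighbours within 2000 bases did not pass the test of heat exposure in either tissue. FBXL8, 402 bases upstream of HSF4 on the same strand, averaged 12.11 CPM in ETM and 11.85 CPM in CT hypothalamus (0.031 ± 0.21, edgeR adjusted p = 0.982), and 9.77 CPM in ETM and 11.26 CPM in CT whole brain (−0.25 ± 0.16, edgeR adjusted p = 0.228). VSIG4, 716 bases from HSF3 on its strand, held 162 counts over all libraries, and an unnamed row 629 bases from HSF2 on its strand held 725. DNAAF1 ends 1951 bases from HSF4 on the other strand. The 3 unnamed rows inside the HSF1 span held 3, 2 and 0 counts over all libraries.

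Genes whose pattern over the 12 libraries was most like each member were listed by Pearson r of log2 CPM, as a description; all points share the 4 groups, and the top of 11816 candidate genes was taken. For HSF1 these were PPP2R2B (r = 0.962), a phosphatase subunit of neurons, SEPTIN5 (0.959) and SEC31B (0.953). For HSF2 they were TOP2B (0.989), a topoisomerase, RAD21 (0.983), a cohesin subunit, and DESI2 (0.983). For HSF4 they were GGA2 (0.917), TMPRSS9 (0.906) and CTHRC1 (0.905).

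For HSF3 they were KIF9 (0.96), a kinesin of motile cilia, ADAT1 (0.945) and RSPH9 (0.941), a radial spoke protein of cilia. After the group means were subtracted, so that only differences among libraries of 1 group counted, KIF9 came first again (0.975), followed by DNAAF1 (0.966), a factor for assembly of ciliary dynein arms, and ADGB (0.962). KIF9 averaged 27.63 CPM in ETM and 13.34 CPM in CT libraries labelled hypothalamus, and 8.07 CPM in ETM and 6.36 CPM in CT whole brain. The libraries labelled hypothalamus ranged from 10.9 to 42.07 CPM in ETM and from 12.81 to 13.98 CPM in CT, so these groups overlapped. The SD of KIF9 was 15.71 CPM in ETM hypothalamus, against 0.301 to 1.105 CPM in the other groups. That of HSF3 was 9.49 CPM there, against 0.756 to 2.55 CPM. The r values of HSF3 after group means thus rest mostly on ETM hypothalamus, where the FPKM of library 1 did not follow the counts. Values of r without that library or with its recovered reads were not recorded. After group means the leading genes were DACT2 (0.97), ZNF384 (0.969) and CAMK1G (0.951) for HSF1, UFL1 (0.979), SDAD1 (0.973) and TRAM1L1 (0.96) for HSF2, and MPST (0.908), RANBP3 (0.903) and ARPC2 (0.898) for HSF4. Within each group HSF4 varied no more than counting alone would give. Its coefficient of variation was 9.86% against 19.7% in ETM hypothalamus and 26.4% against 31.1% in CT whole brain. Its r values after group means may therefore reflect counting noise.

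Known regulators and partners of heat shock factors, mostly established in mammals, moved both ways in whole brain. Of 45 listed genes 40 were found and 39 tested, and 13 rose and 12 fell in ETM whole brain, with a median log2 fold change of 0.117 against 0.0118 over all genes tested. Over all genes 44.3% were called there. HSBP1, which binds the trimer of HSF1 and dampens it, measured 162.4, 162.9 and 151.6 CPM in ETM and 113.1, 97.64 and 104.4 CPM in CT whole brain. It rose in every ETM library, by 0.56 ± 0.08 on the log2 scale (SE; edgeR adjusted p = 0.000486). In hypothalamus HSBP1 measured −0.034 ± 0.13 (edgeR adjusted p = 0.961), and the interaction term for HSBP1 was −0.63 ± 0.15 (edgeR adjusted p = 0.0115). HSBP1 was not among the genes named by lowest p in hypothalamus or for the interaction. Its values there under the alternatives, the recovered reads among them, were not recorded.

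SUMO2, one of the small proteins attached to HSF1 and HSF2, rose by 0.90 ± 0.09 in whole brain (SE; edgeR adjusted p = 0.000108), with 164.2 ± 15.4 CPM in ETM and 85.4 ± 5.72 CPM in CT. The kinase MAPK3, which phosphorylates HSF1 in mammals, rose by 0.57 ± 0.09 (edgeR adjusted p = 0.000595). SMARCA4, the ATPase of a chromatin remodelling complex recruited by HSF1, fell by 0.69 ± 0.10 (edgeR adjusted p = 0.000344). Its mean was 466.2 ± 22.3 CPM in ETM and 733.3 ± 95.6 CPM in CT whole brain, and with offsets for gene length and chromosome class SMARCA4 measured −0.31 (edgeR adjusted p = 0.00519). HSF2BP, a partner of HSF2, fell by 0.64 ± 0.23 (edgeR adjusted p = 0.0424); it was chosen after its value was seen. HSF5, another listed member of the family, held 0 to 17 reads per library and was not tested.

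HSP90, which holds HSF1 in check, split by gene. HSP90AB1, the constitutive form, measured 264.7, 249.2 and 340.5 CPM in ETM and 448.5, 531.9 and 502 CPM in CT whole brain, and fell by 0.84 ± 0.12 (SE; edgeR adjusted p = 0.000398). HSP90AA1, the inducible form, measured 3132, 3149 and 2474 CPM in ETM and 1839, 1749 and 1732 CPM in CT whole brain, and rose by 0.68 ± 0.09 (edgeR adjusted p = 0.000334). Neither pair of groups overlapped. In hypothalamus HSP90AB1 was the 1 listed regulator that passed, lower in ETM (log2 fold change −1.46, edgeR adjusted p = 0.0458), a call lost with the recovered reads (−1.58, edgeR adjusted p = 0.0831). HSP90AA1 measured 0.54 ± 0.15 (edgeR adjusted p = 0.26). Between the labelled tissues 5 regulators were higher and 16 lower in hypothalamus and 18 of 39 did not pass in ETM, where 58.9% of all genes were called, 4743 higher and 4800 lower. In CT 2 were higher, 17 were lower and 20 did not pass, where 34.3% of all genes were called, 2710 higher and 2854 lower. CAMK2A, a kinase of forebrain neurons, led both with −2.75 ± 0.15 in ETM and −2.82 ± 0.15 in CT.

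Chaperone and stress genes are the classical targets of heat shock factors. Of 59 listed, 54 were found and 53 tested, and in whole brain 21 rose and 8 fell, with a median log2 fold change of 0.093 against 0.0118 over all genes. Among all genes in that comparison 44.3% were called, of which 3230 rose and 3557 fell. HSP90B1, the HSP90 of the endoplasmic reticulum, averaged 609.4 ± 22.6 CPM in ETM and 355.7 ± 12.3 CPM in CT (0.73 ± 0.07, edgeR adjusted p = 8.85e-05). The HSP90 co-factor gene AHSA2 rose by 0.84 ± 0.10 (edgeR adjusted p = 0.000204), CACYBP by 0.75 ± 0.09 (edgeR adjusted p = 0.00017) and HSPE1, a mitochondrial co-chaperonin, by 0.63 ± 0.08 (edgeR adjusted p = 0.000221).

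In the libraries labelled hypothalamus 2 of the 53 rose and 1 fell, where 0.0454% of all genes were called, and the median log2 fold change of the list was 0.195 against 0.00734 over all genes. HSPA2 (1.25, edgeR adjusted p = 0.0311) and HSPB9 (1.25, edgeR adjusted p = 0.0332) rose, and HSP90AB1 fell. The call of HSPA2 was lost in 8 of 19 alternatives and those of HSPB9 and HSP90AB1 in 10 of 19 each. With the recovered reads for ETM library 1 no gene was called in this comparison, and HSPA2 measured 1.40 (edgeR adjusted p = 0.074) and HSPB9 1.37 (edgeR adjusted p = 0.199). HSPB9, which encodes a small heat shock protein, measured 25.22, 22.47 and 27.11 CPM in ETM and 11.06, 9.85 and 10.47 CPM in CT hypothalamus, against 5.82 ± 1.18 CPM in ETM and 6.28 ± 0.394 CPM in CT whole brain. Of members that did not pass in hypothalamus, DNAJA4 measured 0.81 ± 0.14 (edgeR adjusted p = 0.144) and HSPB8 0.88 ± 0.20 (edgeR adjusted p = 0.201). Over both tissues 10 rose and 1 fell, where 1.27% of all genes were called, led by DNAJA4 (0.82 ± 0.11, edgeR adjusted p = 0.00588), HSP90AA1 (0.63 ± 0.09, edgeR adjusted p = 0.00739) and HSPH1 (0.63 ± 0.09, edgeR adjusted p = 0.00975), while 0 of the 4 factor genes passed there. With the recovered reads the threshold was missed by HSPH1 (0.59, edgeR adjusted p = 0.0793), HSP90B1 (0.58, edgeR adjusted p = 0.0748), BAG3 (0.77, edgeR adjusted p = 0.0631) and FKBP4 (0.44, edgeR adjusted p = 0.124).

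Neuron migration genes, listed from general knowledge for the part of HSF2 in mouse cortex, were all measured, and in whole brain 5 of the 12 rose and 4 fell. Whether HSF2 acts on each of them was not tested. Over all genes 44.3% were called there, 3230 higher and 3557 lower. CDK5R1, which encodes the p35 activator of CDK5 and is bound by HSF2 in mouse cortex, measured 306.3, 283 and 292.8 CPM in ETM and 435.5, 551.3 and 467.2 CPM in CT whole brain. It fell by 0.76 ± 0.09 (SE; edgeR adjusted p = 0.000205), with no overlap, where HSF2 was above CT in each library. CDK5R2, the p39 activator, fell by 0.44 ± 0.08 (edgeR adjusted p = 0.00202), CDK5 by 0.69 ± 0.12 (edgeR adjusted p = 0.00123) and the neuronal tubulin TUBB3 by 1.01 ± 0.11 (edgeR adjusted p = 0.000114). The microtubule genes DCX (0.27 ± 0.08, edgeR adjusted p = 0.0176) and MAP1B (0.36 ± 0.10, edgeR adjusted p = 0.0145) rose, with calls kept in 14 and 15 of 18 alternatives. With offsets for gene length and chromosome class CDK5R1 measured −0.47 (edgeR adjusted p = 0.00055), CDK5R2 −0.67 (edgeR adjusted p = 0.000283) and MAP1B 0.20 (edgeR adjusted p = 0.136).

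In hypothalamus 0 of the 12 passed the edgeR test and 1 passed with DESeq2, whose count over all genes is given in the closing section. DCX measured 15.13, 7.59 and 5.26 CPM in ETM and 18.56, 19.75 and 22.73 CPM in CT, without overlap (−1.15 ± 0.32, edgeR adjusted p = 0.269). It was the 1 member with an unadjusted edgeR p below 0.05, where 1594 of all 15405 genes had one. With the recovered reads for ETM library 1 DCX measured −0.66 (edgeR adjusted p = 0.717). Between the tissues 2 of the 12 were higher and 6 lower in hypothalamus in ETM, where 58.9% of all genes were called, and 0 were higher and 5 lower in CT, where 34.3% were. DCX was lower in hypothalamus by 4.06 ± 0.27 in ETM and by 2.59 ± 0.24 in CT on the log2 scale, and CDK5 was higher there in ETM (0.90 ± 0.16, edgeR adjusted p = 0.000293).

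Lens genes tied to HSF4 in mammals were measured less completely. Of 18 listed 17 were found, of which 11 passed the count filter in hypothalamus and 9 in whole brain. They include CRYAB, a crystallin that is also a small heat shock protein, and the filament gene VIM. In hypothalamus 0 passed with edgeR and 0 with DESeq2. Of the 11 tested there 2 had an unadjusted edgeR p below 0.05, as did 1594 of all 15405 genes. BFSP2, a lens filament gene, was one of the 2, at −1.52 ± 0.46 (SE; edgeR adjusted p = 0.296) on 4 to 7 reads in ETM and 16 to 18 in CT. In whole brain, where 44.3% of all genes were called, 3 fell, VIM by 0.62 ± 0.07 (edgeR adjusted p = 0.000136), CRYAB by 0.29 ± 0.10 (edgeR adjusted p = 0.0391) and FGF1 by 0.30 ± 0.10 (edgeR adjusted p = 0.0394), all 3 also expressed outside the lens. CRYAB was called in 9 of 18 alternatives, with values from −0.40 to −0.026, and FGF1 in 8 of 18, with values from −0.35 to −0.033.

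**Figure D5:**
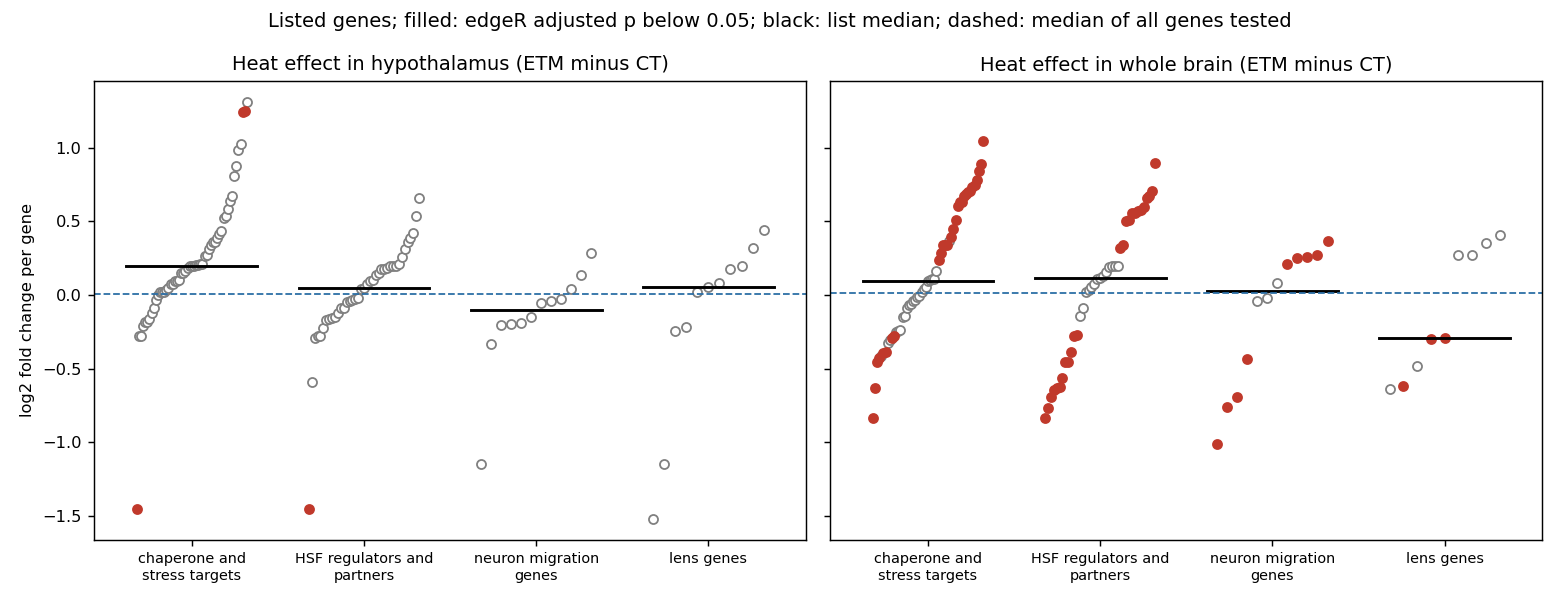
Log2 fold change, ETM minus CT, of each tested gene of 4 lists in the libraries labelled hypothalamus (left) and in whole brain (right), filled where the edgeR adjusted p is below 0.05, with list medians as black lines and the median of all genes dashed. Of chaperone and stress genes 2 rose and 1 fell in hypothalamus, and 21 rose and 8 fell in whole brain; a gene on a pair of lists, such as HSP90AB1, is drawn in each.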

How the data were processed

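The 12 RNA-seq libraries formed 4 groups of 3. The authors deposited raw counts per gene, made with featureCounts of Subread 2.0.6 on build GRCg7b per the submitters' processing notes, and FPKM values, which divide reads by gene length and by library size. The sources used here name no aligner, strand setting or rule for multi-mapping reads. FPKM headers write HT where the labels write ETM. In ETM hypothalamus library 1 0.263% of genes with at least 100 counts had FPKM within 0.1% of the counts, against 100% in the other 11 libraries; its count column was used, and the reads recovered from FPKM summed to 12161593. The 634 rows with no gene name held 0.513% of counts and were kept. No genome sequence was used, so no sequence is shown.

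Tests used edgeR 4.0.16 and R 4.3.3 on the deposited counts (TMM, filterByExpr, quasi-likelihood, Benjamini-Hochberg over all genes tested, called at adjusted p below 0.05). Each heat comparison within a tissue used its 6 libraries, and the others, that over both tissues among them, used all 12. Levels are TMM-scaled CPM over 12 libraries, as mean ± SD, or divided by gene length. The SE comes from the F statistic and the unshrunk fold change and is approximate; printed fold changes are shrunken. Shares were tested by exact permutation.

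The members and lists were chosen with earlier results of these data known. In each comparison, up to 6 members of a list with the lowest p could be named, and for each factor the 3 genes with the highest r among genes with a symbol and at least 1 CPM (log2 CPM, prior count 2); exceptions are marked. Same-number libraries correlated from −0.355 to 0.13 in their deviations from group means, so the numbers gave no sign of pairing. With 3 libraries a group such correlations cannot exclude it. Pairs of libraries of 1 group differed beyond counting noise (chi-square per degree of freedom 5.797 to 37.4). Alternatives were DESeq2 1.42.0, RLE scaling, other count filters, protein-coding genes, a covariate for W-linked genes, a replicate block, a threshold of 0.1, limma 3.58.1 on log2(FPKM + 1) and log2(FPKM + 0.1), offsets for gene length and chromosome class, recovered reads, 1 fit of 12 libraries and each library left out. Tests were first checked on simulated counts.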

Additional observations from a re-analysis of the deposited data

Results flagged for a closer look

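None of the 4 heat shock factor genes met a criterion for a closer look, and groups of 3 libraries are too small for the test of single outlying libraries. By the edgeR interaction test (adjusted p below 0.05) the heat effect differed between the tissues for 15 of 39 tested regulators and partners, 15 of 53 chaperone and stress genes, 7 of 12 neuron migration genes and 1 of 12 lens genes, where 24.2% of all genes were called. The 19 given here were named for their low p in that test, at most 6 a list. Values are the ETM minus CT difference in libraries labelled hypothalamus minus that in whole brain, on the log2 scale. Of regulators and partners, DAXX measured 0.72 and CREBBP 0.80, while DYRK2 measured −0.77, MAPK3 −0.78, AKT1 −0.65 and MAPK8 −0.79. Of chaperone and stress genes, HSPA2 measured 1.10, HSPB9 1.36, DNAJB1 0.66, DNAJB2 0.81 and STIP1 0.78, while DNAJA2 measured −0.57. Of neuron migration genes, CDK5 measured 0.94, CDK5R1 0.67 and TUBB3 0.79, while DCX measured −1.47, DCLK1 −0.49 and MAP1B −0.73. Of lens genes, VIM measured 1.02. With the recovered reads for ETM hypothalamus library 1 the threshold was missed by MAPK8 (−0.93, edgeR adjusted p = 0.0548), DCX (−0.98, 0.225), CDK5R1 (0.86, 0.0643) and TUBB3 (1.05, 0.0701). With offsets for gene length and chromosome class 6 of the 19 missed it, DNAJB1 (0.085, edgeR adjusted p = 0.656), STIP1 (0.15, 0.418), DCLK1 (−0.21, 0.167), CDK5R1 (0.30, 0.138), TUBB3 (0.44, 0.127) and MAP1B (−0.51, 0.0876). The causes were not tested.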

How the results depend on the processing

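HSF1 and HSF2 kept their calls between the ETM tissues in all 18 alternatives, HSF4 in 17 and HSF3 in 14. The HSF1 call in whole brain held in 10 of 18. It was lost with the W-linked covariate (−0.53, adjusted p = 0.0572), with log2(FPKM + 1) (−0.43, 0.064), with log2(FPKM + 0.1) (−0.47, 0.0585), in the fit of all 12 libraries (−0.49, 0.143) and without 4 single libraries. HSF2 in whole brain passed with a filter of 1 CPM (0.27, 0.048), protein-coding genes (0.27, 0.0445), a threshold of 0.1 (0.27), log2(FPKM + 1) (0.29, 0.0419), log2(FPKM + 0.1) (0.30, 0.04) and without CT library 3 (0.34, 0.0386). The interaction of HSF2 passed at 0.1 (−0.49). Between the CT tissues HSF2 missed the threshold with log2(FPKM + 1) (−0.44, 0.0656), log2(FPKM + 0.1) (−0.47, 0.0681) and recovered reads (−0.48, 0.0532). HSF3 passed there at 0.1 (0.29) and with offsets (0.32, 0.0368). With the replicate block HSF1 passed there (0.51, edgeR adjusted p = 0.0486), and the block changed no other call of a member. Since the numbers gave no sign of pairing, this is given once.

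With 1 library left out in turn, log2 differences in hypothalamus ran from −0.021 to 0.47 for HSF1, −0.28 to −0.057 for HSF2 and 0.22 to 0.49 for HSF3, and in whole brain from −0.70 to −0.35 for HSF1, 0.17 to 0.34 for HSF2, 0.15 to 0.27 for HSF3 and −0.018 to 0.36 for HSF4. Over both tissues they ran from −0.28 to −0.014 for HSF1, −0.014 to 0.14 for HSF2 and 0.24 to 0.34 for HSF3. Interactions ran from 0.49 to 0.96 for HSF1, −0.60 to −0.35 for HSF2 and −0.026 to 0.26 for HSF3. Tissue differences ran from 0.32 to 0.67 for HSF1 and −0.59 to −0.41 for HSF2 in CT, and in ETM from 0.26 to 0.54 for HSF3 and 0.96 to 1.31 for HSF4. On log2(FPKM + 1) HSF4 measured 0.18 over both tissues. Share differences in percentage points ran from −4.50 to 8.62 for HSF1 and −0.439 to 6.95 for HSF3 by heat in hypothalamus, −0.0278 to 0.176 for HSF4 by heat in whole brain, −0.506 to 6.89 for HSF3 between ETM tissues and −0.0276 to 0.204 for HSF4 between CT tissues. CRYBB2 ran from −0.0097 to 0.35 and GJA3 from −0.37 to 0.059 in hypothalamus. With offsets the interactions of CRYAB (−0.053) and FGF1 (−0.024) changed sign.

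Of all genes in hypothalamus 7 were called, 6 higher and 1 lower (6 and 0 with RLE scaling), and 1594 had an unadjusted p below 0.05. The count was 195 with DESeq2, 52 without a count filter, 3 with the W-linked covariate, 2 with the replicate block, 13 at 0.1, 13 with offsets, 83 in the 12-library fit, 0 with recovered reads and 0 with each FPKM fit, and 0 to 39 with a library left out, the highest without ETM library 1. Over both tissues the main count was 205. It was 1260 with DESeq2, 101 for protein-coding genes, 55 with the W-linked covariate, 2 with the replicate block, 889 at 0.1, 29 with log2(FPKM + 1), 20 with log2(FPKM + 0.1), 338 with offsets, 50 with recovered reads, and 28 to 2981 with a library left out, the highest again without ETM hypothalamus library 1. For the interaction, 3917 genes became 2053 with the replicate block, 2408 with log2(FPKM + 1), 2277 with log2(FPKM + 0.1) and 2340 to 4195 with a library left out. Without gene length 0 of 4 groups kept their order of members. Of 2753 values of named genes other than the 4 members under alternatives 2529 kept direction and side of the threshold, 174 lost a call, 46 gained one and 4 changed sign. Causes were not tested. Depth limits HSF4, and 3 libraries a group limit every test.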
